A study of Mus musculus with 6 samples.

Results

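The cells described here were chondrocyte-like cells led by Col2a1, the gene of type II collagen, in a single-cell survey of the mouse Achilles tendon. They were chosen by their own UMI counts (unique molecular identifiers, 1 per captured transcript). A cell barcode was a member if it held at least 1000 UMIs, at least 200 genes and at most 5% mitochondrial UMIs, at least 5 Col2a1 UMIs that made up at least 0.1% of its UMIs, and more Col2a1 UMIs than UMIs of the bone genes Bglap, Bglap2 and Ibsp together. Of 84194 barcodes, 63329 passed the first 3 limits and 531 were members.

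All mice carried Gli1-CreERT2 and the Ai9 reporter and received tamoxifen, which turns on Cre recombinase in cells that use the Gli1 promoter and leaves those cells and their progeny with a fluorescent mark. There were 24 mice, 8 uninjured controls, 8 taken 7 days post-injury (dpi) and 8 taken 21 dpi after tenotomy, the cutting of the tendon. Their age was not given in the labels. Cells of each time point were sorted by the reporter as Gli1+ or Gli1-, which gave 6 libraries, 1 for each sort and time, from pooled mice. Gli1- cells can include cells of the lineage in which the reporter did not recombine. Because each condition had 1 library, no spread between mice could be had and no test was made. All intervals are 95% intervals that hold counting error only, Poisson for levels, binomial for shares and log2 ratios.

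Total depth was 72196599 to 135202247 UMIs per library. The labels gave equal numbers of both sexes, but the sex-linked genes did not. At 7 dpi, 16 of 21 Gli1+ members and 32 of 32 Gli1- members held UMIs of Y-linked genes and none of Xist, the RNA that coats the inactive X chromosome. At 21 dpi, Xist without Y-linked genes was found in 91.9% and 94.9% of members, so that time and sex cannot be told apart among them. In the other Pdgfra cells of uninjured tendon, Xist alone was found in 64.3% of Gli1+ and 0% of Gli1- cells. Y-linked genes alone were found in 21.8% and 72.8%, so that sort and sex were partly mixed there and were not separated. The pairs of libraries shared 17 to 38 kept barcodes, and no barcode was a member in both libraries of a pair. Scoring for doublets, barcodes that hold more than 1 cell, marked 1 of 21 and 0 of 32 members at 7 dpi, and 11.9% of Gli1+ and 17.5% of Gli1- members at 21 dpi. The shares among all kept barcodes of the 21 dpi libraries were 8.56% and 9.63%.

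Chondrocytes make the matrix of cartilage, a network of type II, IX and XI collagen fibrils that holds aggrecan, a large sulfated proteoglycan. The transcription factor SOX9 switches on these matrix genes with SOX5 and SOX6. Where cartilage gives way to bone, chondrocytes stop dividing and become hypertrophic, which is marked by type X collagen, and Indian hedgehog from them acts with parathyroid hormone-related protein to pace this step. In injured tendon, ectopic bone can form through such a cartilage stage.

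Col2a1-led cells were nearly absent without injury and made up a few percent of the cells at 21 dpi. In uninjured tendon, 1 of 7516 Gli1+ cells met the rule, a share of 0.0133% with an interval of 0.000337 to 0.0741%. None of 12113 Gli1- cells did, and a count of 0 allows a share of up to 0.0248% taken as 3 counts of the total, or 0.0304% as the upper limit of the exact interval. At 7 dpi the share was 0.209% of Gli1+ cells (21 of 10064, 0.129 to 0.319%) and 0.294% of Gli1- cells (32 of 10899, 0.201 to 0.414%). At 21 dpi it was 1.73% of Gli1+ cells (185 of 10695, 1.49 to 2.0%) and 2.42% of Gli1- cells (292 of 12042, 2.16 to 2.72%). The order of the time points was thus the same in both sorts. With members that held no bone-gene UMI the shares at 21 dpi were 1.05% and 1.25%, and whether the sorts differ was not tested. These shares depend on the sort and on how each tissue came apart, as well as on the cells in it.

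**Figure D1:**
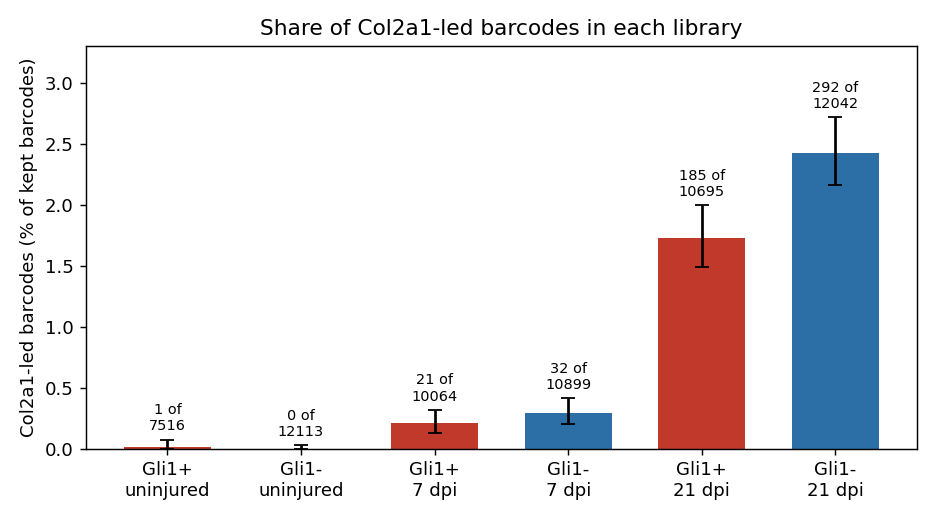
Share of Col2a1-led cells among kept barcodes (%, linear axis from 0) in each of the 6 libraries, red for Gli1+ and blue for Gli1-; bars are single libraries and error bars exact binomial 95% intervals. The share is 0.0133% and 0 in uninjured tendon, 0.209% and 0.294% at 7 dpi and 1.73% and 2.42% at 21 dpi.

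The single member of uninjured tendon did not carry the other cartilage markers. It held 7 Col2a1 UMIs among 6226, with 0 UMIs of Acan, Sox9, Col9a1 and Col10a1, but 4 of Scx and 20 of Fmod, genes of tendon cells. In that library, 8 barcodes passed the Col2a1 thresholds and 7 of them had at least as many bone-gene as Col2a1 UMIs. The cell is left out of the rest of the results.

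After injury, the cells carried the cartilage markers that the rule had not used. At least 2 of Acan, Sox9, Col9a1 and Col10a1 had a UMI in 21 of 21 and 32 of 32 members at 7 dpi, and in 172 of 185 (93.0%) and 269 of 292 (92.1%) at 21 dpi. Acan, the aggrecan gene, was found in 95.7% of Gli1+ and 94.5% of Gli1- members at 21 dpi. Endothelial cells of the same libraries, which should lack it, were chosen by Cdh5 with no UMI of Pdgfra or Ptprc. They held an Acan UMI in 5.19% and 9.16% of barcodes, at a median depth of 7592.5 and 6973.5 UMIs against 13864 and 15299.5 in the members. With every cell thinned to 2000 UMIs, Acan remained in 85.5% and 86.3% of members and in 1.97% and 2.50% of endothelial cells. The shares in members were above those in endothelial cells at both depths, and the label of chondrocyte-like cells was kept.

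Sox9 and Col9a1 were also more often found in members than in endothelial cells. Sox9 was found in 82.7% and 78.1% of members and in 6.13% and 5.92% of endothelial cells, and after thinning in 49.7% and 39.1% against 0.985% and 2.22%. Col9a1, which encodes a chain of type IX collagen, was found in 87.0% and 89.4% of members and in 1.42% and 1.86% of endothelial cells. Other cells with Pdgfra held Acan in 27.5% and 28.0%, Sox9 in 34.2% and 31.2% and Col9a1 in 3.48% and 4.45%, so that Acan and Sox9 were not private to the members. Pdgfra, a receptor gene of fibroblasts that defined the comparison cells below, had a UMI in 36.2% and 49.0% of members. After injury, most Col2a1 UMIs of the libraries lay in these few cells, which the rule had chosen by Col2a1, so this is a description. Members held 80.3% and 84.4% of all Col2a1 UMIs of kept barcodes at 7 dpi and 86.8% and 92.8% at 21 dpi, in the order Gli1+ and Gli1-.

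Single cells ranged widely in Col2a1. At 21 dpi, Col2a1 made up 0.101% to 8.28% of the UMIs of a Gli1+ member with a median of 1.57%, and 0.10% to 9.17% of a Gli1- member with a median of 1.69%. The medians at 7 dpi were 1.48% and 1.57%, with highest cells at 6.41% and 4.88%. Acan, in UMIs per 10000, had medians of 30.9 and 30.9 at 7 dpi and of 21.2 and 19.0 at 21 dpi, where its lowest cells were at 0 and its highest at 119.8 and 93.7. The medians of Col2a1 and Acan were thus close in the sorts, and the spread over cells was wide in each library. The rule cut Col2a1 at 0.1% in both sorts, which sets the lower end of its range. The medians of Sox9 at 21 dpi were 2.93 and 2.05 UMIs per 10000.

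**Figure D2:**
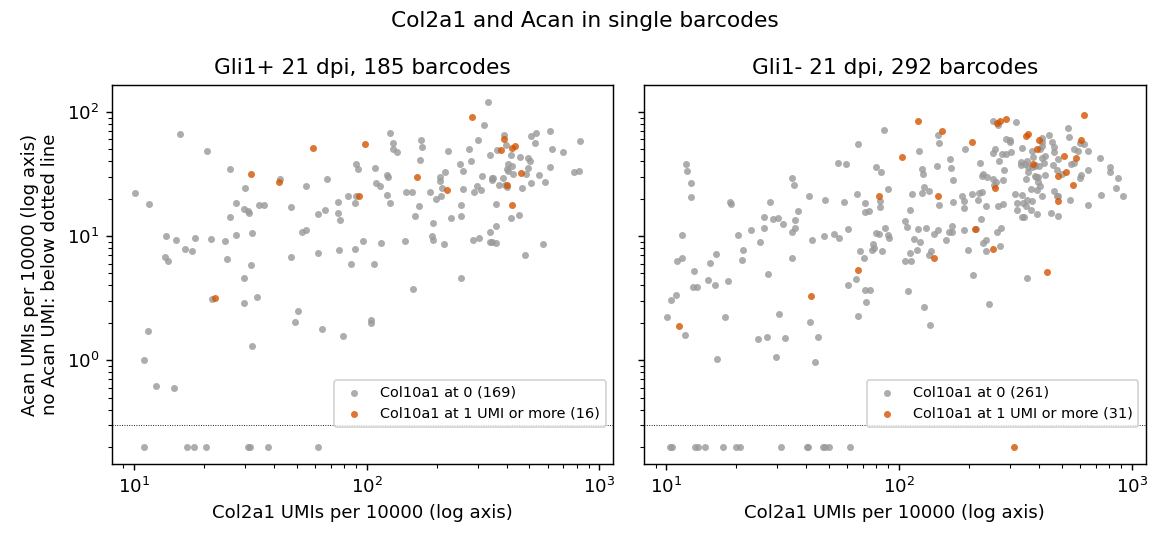
Acan against Col2a1 in UMIs per 10000 (both axes log) in single Col2a1-led cells at 21 dpi, 185 Gli1+ at left and 292 Gli1- at right; cells with a Col10a1 UMI are orange (16 and 31) and cells with no Acan UMI lie below the dotted line. Most cells with no Acan UMI have low Col2a1, and the highest cells lie at 119.8 and 93.7. The orange cells are spread over the range of Col2a1 but lie higher in it, with a median Col2a1 share of 2.53% and 2.90% against 1.46% and 1.49%.

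The members at 21 dpi were set against the other kept cells with at least 1 Pdgfra UMI in the same library, 5834 Gli1+ and 6161 Gli1- cells, since these hold the fibroblasts and tendon cells of the sort. Levels are UMIs summed over the cells of a class per 1000000 of their UMIs (CPM), and values are given for Gli1+ and then Gli1-. A gene was called higher or lower where the log2 ratio of members over other cells was at least 1 in size in both sorts. Of 8677 genes with enough UMIs, 443 (5.11%) were called higher and 733 (8.45%) lower, and the median gene stood at -0.13 and -0.15. Because the members were selected on Col2a1 in these same cells, all counts of this comparison are descriptions from which nothing is read. Median depth was 13864 and 15299.5 UMIs per member and 9913.5 and 9773 per other cell.

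All 8 cartilage collagens were called higher, with a median log2 ratio of 8.27 and 7.70. Col2a1 itself, used by the rule, stood at 23552 CPM (23371 to 23735) and 25378 CPM (25232 to 25525), against 60.6 and 53.8 CPM in the other cells. The type IX collagen genes, whose product decorates the type II fibril, were at no more than 8.80 CPM in the other Pdgfra cells. Of those cells, 203 of 5834 and 274 of 6161 still held a Col9a1 UMI. Col9a1 was at 1673 and 1882 CPM against 5.44 and 5.42, a log2 ratio of 8.26 (8.11 to 8.42) and 8.44 (8.29 to 8.60). Col9a2 was at 2423 and 2426 CPM against 7.77 and 8.80, and Col9a3 at 2218 and 2177 CPM against 3.65 and 5.52. Col11a1 and Col27a1, which the other cells also held, differed less. Col11a1 was at 3955 and 4581 CPM in members and 371 and 316 in other cells, a log2 ratio of 3.42 (3.38 to 3.45) and 3.86 (3.83 to 3.88). Col11a2, the partner chain, was at 988 and 1079 CPM against 10.3 and 9.16.

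Of 20 proteoglycans and glycoproteins of cartilage, 16 were called higher and 1 lower, with a median of 4.39 and 4.55. Acan was at 2608 and 2609 CPM against 114 and 102, a log2 ratio of 4.51 (4.47 to 4.56) and 4.67 (4.63 to 4.71). Hapln1, the link protein that fixes aggrecan to hyaluronan, was at 1760.0 and 1462 CPM against 21.3 and 19.0. Several genes of small secreted or membrane proteins of cartilage had low summed levels in the other Pdgfra cells. Cnmd, which encodes chondromodulin, an inhibitor of vessel growth, was at 929 and 1177 CPM against 1.2 and 2.28, a log2 ratio of 9.60 (9.28 to 9.94) and 9.01 (8.78 to 9.25). Snorc, a transmembrane proteoglycan gene of cartilage, was at 3500.2 and 3879 CPM against 5.24 and 14.6. Ucma, a secreted protein of the growth plate that binds calcium, was at 1608 and 1769.8 CPM against 5.35 and 5.42. Mia and Matn3, a secreted protein and a matrilin of cartilage, and Scrg1 were likewise below 7 CPM in the other cells of both sorts, against 756 and 754, 1223 and 1438, and 1064 and 892 CPM in the members.

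Comp, a pentameric matrix protein of cartilage and tendon, was at 3791 and 3973 CPM against 487 and 511, a log2 ratio of 2.96 (2.93 to 2.99) in both sorts. Fmod, a small proteoglycan that binds collagen fibrils, was at 1286 and 1341 CPM against 570.0 and 533. Prg4, the lubricin gene of the joint surface, was at 290.5 and 209 CPM against 344 and 587 and was not called. Cilp was the 1 gene of the list called lower, at 43.5 and 76.1 CPM against 298 and 319. Susd5, Smpd3 and Ncmap completed the 15 genes of largest ratio, at 172 and 179, 196 and 226, and 143 and 124 CPM against at most 3.41 CPM in the other cells.

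The promoters of 3 of these 15 genes, the 250 bases before the gene start, are printed because Cnmd and Ucma were at most at 5.42 CPM in the other cells and Col10a1 divides the members below. They are RefSeq sequence of mouse build GRCm38.p6, read along the gene, and none overlaps an annotated exon. The letters searched on both strands were ACAAAG, a core of the SOX site, TGTGGT, a core of the RUNX site, and TATAAA, the TATA box, and matches are in capitals.
Cnmd, chr14:79662184-79662433, minus strand: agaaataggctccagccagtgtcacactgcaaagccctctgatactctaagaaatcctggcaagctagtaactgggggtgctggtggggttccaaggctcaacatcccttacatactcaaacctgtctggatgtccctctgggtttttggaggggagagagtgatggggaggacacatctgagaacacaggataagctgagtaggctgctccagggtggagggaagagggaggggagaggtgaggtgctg
Ucma, chr2:4975872-4976121, plus strand: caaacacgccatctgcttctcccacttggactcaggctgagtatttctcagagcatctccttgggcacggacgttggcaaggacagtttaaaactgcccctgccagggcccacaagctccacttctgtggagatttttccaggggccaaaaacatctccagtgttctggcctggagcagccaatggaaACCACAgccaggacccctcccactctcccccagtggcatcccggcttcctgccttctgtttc
Col10a1, chr10:34389731-34389980, plus strand: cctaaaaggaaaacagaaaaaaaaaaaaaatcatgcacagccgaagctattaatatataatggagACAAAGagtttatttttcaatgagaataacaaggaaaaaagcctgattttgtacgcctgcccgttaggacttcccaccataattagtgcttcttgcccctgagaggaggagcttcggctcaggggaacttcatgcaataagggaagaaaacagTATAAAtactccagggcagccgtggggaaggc
The Cnmd window held none of the 3, the Ucma window held TGTGGT on the opposite strand, and the Col10a1 window held ACAAAG and TATAAA. Of the 15 genes, 11 had a window, with ACAAAG in 1, TGTGGT in 2 and TATAAA in 2 of them. Over all genes called higher, 460 windows of 333 genes, ACAAAG stood in 13.3%, TGTGGT in 12.2% and TATAAA in 6.74%, against 16.5%, 14.0% and 12.4% of 32851 windows of 27025 genes. The letters were thus no more frequent before these genes than before all genes.

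Of 13 chondrogenic transcription factors, 9 had enough UMIs, 7 were called higher and none lower. Sox9 was at 493 and 305 CPM against 81.0 and 71.0, a log2 ratio of 2.60 (2.52 to 2.69) and 2.10 (2.02 to 2.19). Its partners differed from each other. Sox6 was at 268 and 333 CPM against 16.7 and 14.8, a log2 ratio of 4.0 (3.86 to 4.14) and 4.49 (4.38 to 4.61). Sox5 was at 297 and 332 CPM against 224 and 311, a log2 ratio of 0.41 (0.30 to 0.51) and 0.10 (0.02 to 0.17). Runx2 and Runx3, factors of hypertrophy and bone, were both called, at 262 and 256 CPM against 68.1 and 79.3 and at 104 and 65.6 against 6.50 and 4.95. The others called were Mef2c, Trps1 and Nfatc2.

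Hedgehog and PTHrP genes did not all go 1 way. Of 13, 10 had enough UMIs, 6 were called higher and 1 lower. Among the ligands, Ihh was at 88.4 and 36.5 CPM in members and under 1 CPM in other cells, while Pthlh, which encodes PTHrP, was at 1.83 and 5.47 CPM against 18.9 and 20.4 and was the 1 gene called lower. The receptors were high in the members. Pth1r, the receptor of PTHrP, was at 385 and 399 CPM against 41.1 and 36.7, and Ptch1, the receptor and target of hedgehog, at 196 and 228 CPM against 20.8 and 20.1. Gli1, another target and the gene of the sort, was at 11.7 and 19.0 CPM against 3.64 and 3.63, a log2 ratio of 1.68 (1.10 to 2.22) and 2.39 (2.02 to 2.75). Gli1 transcript was thus low in both sorts at 21 dpi, and was not higher in the members of the Gli1+ library than in those of the Gli1- library. In the other Pdgfra cells it was at 14.6 and 8.83 CPM in uninjured tendon and at 1.92 and 2.45 CPM at 7 dpi. Hhip and Gli2 were also called higher, and Smo, Gli3 and Sufu were not called.

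Of 18 BMP and FGF genes, 16 had enough UMIs, 3 were called higher and 1 lower. Fgfr3, the receptor that slows growth of chondrocytes, was at 106 and 107 CPM against 5.18 and 3.29. Id1, a target of BMP signalling, was at 279.5 and 223 CPM against 53.6 and 40.8. Chrdl2, a BMP antagonist, was the other gene called higher and Fgf18 the gene called lower, while the receptors Bmpr1a, Bmpr1b, Bmpr2 and Acvr1 had log2 ratios of -0.55 to 0.12. The Wnt inhibitors fell on both sides. Frzb, Sfrp5 and Wif1 were called higher, with Frzb at 135 and 119 CPM against 3.85 and 4.13, Sfrp5 at 39.8 and 86.9 against 1.02 and 1.26, and Wif1 at 364 and 154 against 20.1 and 11.6. Sfrp1, Sfrp2, Sfrp4 and Dkk2 were called lower, with Sfrp4 at 36.9 and 51.2 CPM against 374 and 495.

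GNAS and protein kinase A (PKA) signalling, the pathway the study took up, was represented by 21 genes. Of these, 18 had enough UMIs, none was called higher and 3 were called lower, beside 5.11% and 8.45% of all genes with enough UMIs. Their median was -0.28 and -0.24 where the median of all genes was -0.13 and -0.15. Gnas, which encodes the stimulatory G protein subunit, was at 1092 and 1046 CPM against 1518 and 1454, a log2 ratio of -0.48 (-0.53 to -0.42) and -0.48 (-0.52 to -0.43). Prkaca, the catalytic subunit of PKA, was at 8.77 and 11.8 CPM against 20.7 and 22.1, from 24 and 54 UMIs in the members. Its ratio, -1.24 (-1.89 to -0.66) and -0.90 (-1.32 to -0.51), passed the size for a call in the Gli1+ library alone. Those called lower were Adcy7, an adenylyl cyclase, Pde4d, a phosphodiesterase that breaks down cyclic AMP, and Creb5, at 58.1 and 69.8 CPM against 237 and 288. Nr4a1 and Nr4a2, immediate targets of CREB, had log2 ratios of 0.25 to 0.40. These are transcript levels and do not measure activity of the pathway.

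Some genes for making matrix were called higher. Of 12 genes for sulfate supply and glycosaminoglycan synthesis, 10 had enough UMIs and 5 were called higher, none lower. They were Papss2, which activates sulfate and was at 294 and 257 CPM against 25 and 29.9, Slc26a2, the sulfate transporter, at 112 and 114 CPM against 15.2 and 13.8, and the enzymes Chst11, Chsy1 and Xylt1. Of 19 genes of collagen folding and secretion, by contrast, 1 was called higher, the lysyl hydroxylase Plod2 at 980.3 and 854 CPM against 373 and 406. Their median was still above that of all genes, at 0.50 and 0.47. Of 14 genes of hypoxia and glycolysis, Slc2a1, Pgk1, Eno1 and Bnip3 were called higher and Adm lower, of 12 with enough UMIs. Of 10 genes of the cell cycle, 6 had enough UMIs and 3 were called higher, Top2a and Cdk1 of dividing cells and Cdkn1a, an inhibitor of division, at 701 and 519 CPM against 171 and 155. Mki67 had a UMI in 5.95% and 7.53% of members and in 4.66% and 4.12% of other Pdgfra cells.

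Of 18 genes of hypertrophy and mineralization, 15 had enough UMIs and 11 were called higher, with a median of 2.99 and 2.73. Col10a1, which is part of both this list and the collagens, was at 621 and 636 CPM against 0.652 and 4.07, but among members with no bone-gene UMI its log2 ratio in the Gli1- library was -3.24. Alpl, the phosphatase that starts mineral deposition, was at 227 and 262 CPM against 20.5 and 22.5. Panx3 and Smpd3 were at 121 and 130.2 and at 196 and 226 CPM against at most 3.41 CPM. Spp1, osteopontin, was at 5293 and 3472 CPM against 1013 and 1219.9. Of 6 osteoblast genes with enough UMIs, Ibsp, Runx2, Sp7 and Alpl were called higher and none lower, with a median of 1.62 and 1.80. Ibsp was at 1191 and 963 CPM against 486 and 293 and was called, though the rule had limited it. At least 1 Ibsp UMI was found in 63 of 185 and 117 of 292 members, and the highest cells held 154.5 and 371 per 10000 UMIs, so the summed level rests on a minority of cells. Bglap, osteocalcin, was at 19.0 CPM against 48.1 in the Gli1+ library and at 54.9 against 17.8 in the Gli1- library. Dmp1, of osteocytes, was under 1 CPM in members. Mmp13, the collagenase of hypertrophic cartilage, was at 942 and 833 CPM against 1300.1 and 1685, so that it was not higher in the members.

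Among the 733 genes lower in the members were all 5 genes of the stem cell or adventitial fibroblast list, set against cells chosen by Pdgfra, itself a fibroblast gene. Ly6a, which encodes SCA-1, was at 140.3 and 191 CPM against 933 and 1017, a log2 ratio of -2.73 (-2.88 to -2.59) and -2.41 (-2.51 to -2.31), and Pi16, of adventitial fibroblasts, at 55.5 and 60.8 CPM against 422 and 446. Ly6a still had a UMI in 41.1% and 53.1% of members, against 86.9% and 90.5% of other Pdgfra cells. The 15 genes of largest ratio downwards included the secreted Wnt inhibitors Sfrp4 and Sfrp1, the matrix genes Dpt, Vcan, Tnxb and Mfap5, and the chemokines Cxcl5 and Cxcl12. Cxcl5 was at 17.5 and 107 CPM against 496 and 647, and Cxcl12 at 70.5 and 124 CPM against 542 and 719. The other 7 were Ccn3, Clec3b, Pi16, Adgrd1, Angptl1, Plat and Celf2.

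Collagens of tendon and scar were lower in part. Of 8 genes, Col3a1 and Col14a1 were called lower, with Col3a1 at 3492 and 3949.9 CPM against 13274 and 12495. Col1a1, which tendon and bone share, was at 9433 and 10787 CPM against 15887 and 13552 and was not called. Among proteases and inhibitors, Mmp2 and Mmp3 were called lower and Timp3 higher, of 10 genes, with Mmp3 at 249 and 492 CPM against 1674 and 2110.2. Tnfaip6, which encodes a hyaluronan-binding protein, was at 501 and 572 CPM against 1799 and 1735 and was called lower. The tendon markers did not go 1 way. Thbs4 was called lower, at 191 and 231 CPM against 1136 and 942, and Fmod higher. Scx, the transcription factor of tendon progenitors, was at 20.8 and 25.2 CPM against 55.9 and 39.7, a log2 ratio of -1.42 (-1.83 to -1.05) and -0.66 (-0.94 to -0.39), and had a UMI in 17.3% and 17.5% of members against 22.9% and 18.9% of other Pdgfra cells. Tnmd, a membrane protein of mature tendon cells, was at 65.4 and 93.0 CPM against 199 and 160.1, and Mkx differed by at most 0.11.

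**Figure D3:**
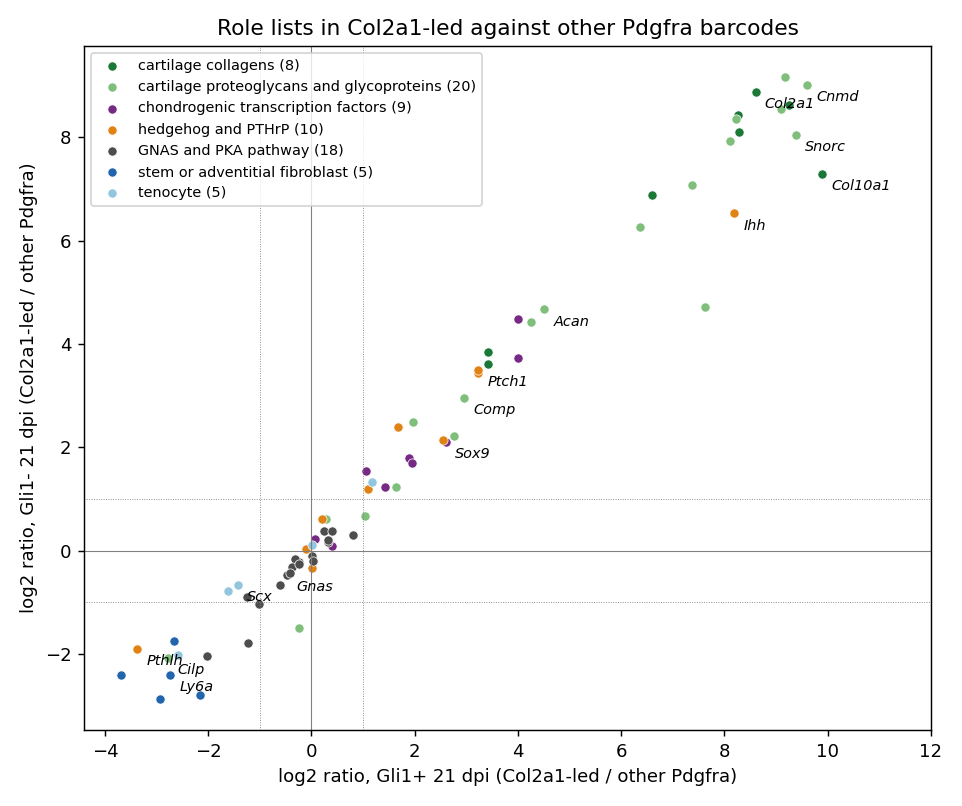
Log2 ratio of the summed UMIs per 1000000 of Col2a1-led cells over other Pdgfra cells at 21 dpi, Gli1+ on the horizontal and Gli1- on the vertical axis, each point 1 gene with enough UMIs and colours marking 7 of the lists; dotted lines mark a log2 ratio of 1 in size. Col10a1 lies at 9.90 and 7.29 and Cnmd at 9.60 and 9.01, GNAS and PKA genes lie near 0 with 3 below the lower lines, and the stem or adventitial fibroblast genes lie below -1 in both sorts.

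Markers of other cells in the members were at or below those in the other Pdgfra cells for most lists. The 4 immune markers summed to 4.02 and 5.69 CPM in members, with Cd3e at 0 in both and Ptprc at 0 in both. The 4 endothelial markers summed to 5.48 CPM against 13.3 in the Gli1+ library and to 57.3 against 86.6 in the Gli1- library. Epidermal keratins summed to 522 CPM against 594 in the Gli1+ library and to 27.1 against 71.8 in the Gli1- library. Mural cell markers summed to 97.9 and 183 CPM against 79.2 and 181. The 3 Schwann cell markers summed to 0.731 and 5.47 CPM against 2.41 and 10.3, with Sox10 at 0 in Gli1+ members. The 3 markers of skeletal muscle summed to 8.04 and 10.1 CPM against 5.23 and 5.25, with Myh4 at 0, and the erythroid genes to 0.365 and 19.3 CPM against 2.03 and 87.0. Osteoclast genes Acp5 and Ctsk were called lower, with Ctsk at 266 and 253 CPM against 831 and 684. The part of these cells in the ratios above was not tested.

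At 21 dpi the members were also set against 2 other classes of cells. The first was 303 bone-led cells, with at least 5 Bglap, Bglap2 and Ibsp UMIs that made up at least 0.1% of UMIs. In these, Col2a1 UMIs did not exceed the bone-gene UMIs. Still, 38 of 156 Gli1+ and 25 of 147 Gli1- bone-led cells passed both Col2a1 thresholds, so this class also held cells high in Col2a1. The second was 3146 cells with at least 1 Scx and 5 Fmod UMIs that were neither members nor bone-led. Against bone-led cells, Ucma was higher by a log2 ratio of 6.93 and 8.47, Cnmd by 4.54 and 4.90 and Matn3 by 4.15 and 4.44. Acan was higher by 1.64 and 2.09 and Sox9 by 1.44 and 1.26. Hypertrophy genes did not separate these classes in the same way. Col10a1 was at -0.67 and -0.43, Ihh at 0.21 and -0.52 and Alpl at -1.97 and -1.37. Against the Scx and Fmod cells, Acan was higher by 3.23 and 3.18 and Col10a1 by 11.09 and 9.51, while Fmod was at -0.51 and -0.34 and Scx at -3.58 and -3.03. Gnas was at 0.05 and -0.02 against bone-led cells and at -0.43 and -0.43 against Scx and Fmod cells. Col2a1, the bone genes, Scx and Fmod were used to choose these classes.

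The members differed among themselves along the share of Col2a1. In bands chosen after the values were seen, 49, 56 and 80 Gli1+ cells and 70, 85 and 137 Gli1- cells had 0.1 to 0.5%, 0.5 to 2% and 2% or more Col2a1 UMIs. Col9a1 was at 191, 853 and 2788 CPM in the Gli1+ bands and 161, 880 and 3007 CPM in the Gli1- bands, and Snorc went from 386 to 5647 and from 331 to 5980 CPM. Acan stood at 1261, 2285 and 3398 CPM and at 867, 1779 and 3648 CPM. Sox9 differed less, at 378, 492 and 545 CPM and at 213, 247 and 368 CPM.

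Ly6a, a surface marker of stem cells and adventitial fibroblasts, was at 327, 126 and 61.8 CPM in the Gli1+ bands and at 411, 244 and 88.9 CPM in the Gli1- bands. Col3a1 went from 5419 to 2299 CPM and from 5787 to 2602 CPM, and Tnmd from 123 to 14.5 and from 171 to 45.7 CPM. The share of cells with a Pdgfra UMI was 57.1%, 35.7% and 23.8%, and 67.1%, 56.5% and 35.0%, although the deepest cells were in the highest band. Fmod and Gnas differed less across the bands, with Fmod at 1226, 1351 and 1279 CPM and at 1457, 1350.3 and 1296 CPM, and Gnas at 1087, 1122 and 1079 CPM and at 1159, 1112 and 972 CPM. Likely doublets made up 14.3%, 10.7% and 11.3% of the Gli1+ and 21.4%, 28.2% and 8.76% of the Gli1- bands, and their part in the slopes was not tested. Col2a1 set the bands and its RNA is part of every total, so these are descriptions.

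**Figure D4:**
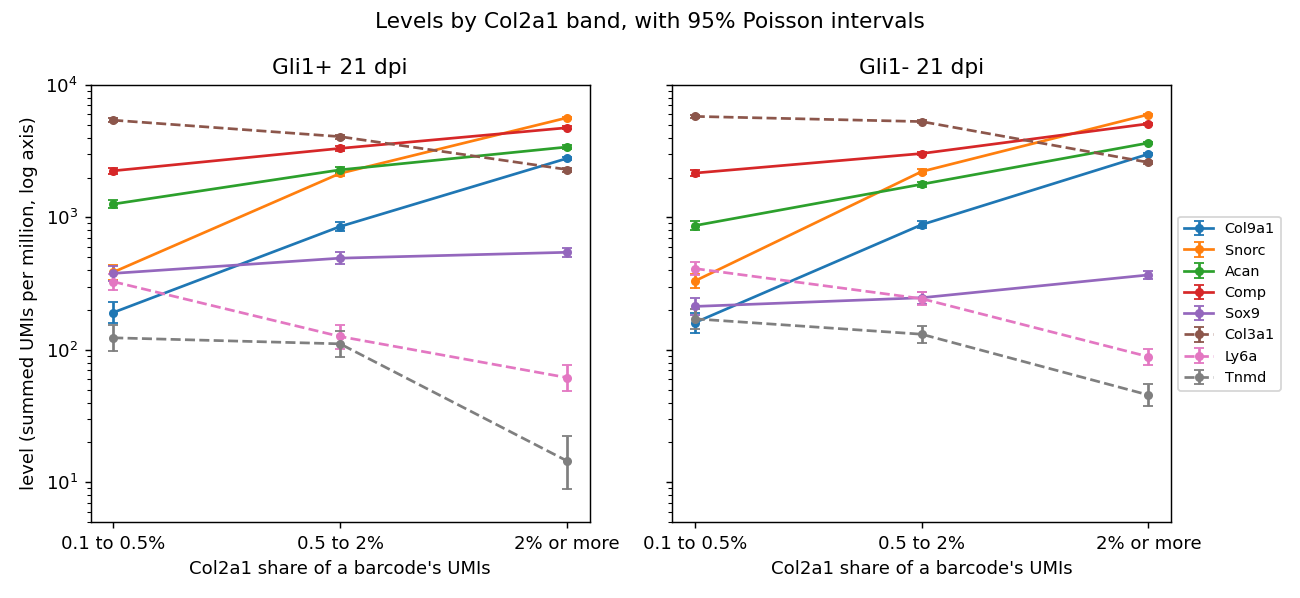
Levels of 8 genes (summed UMIs per 1000000, log axis) in Col2a1-led cells at 21 dpi by band of the Col2a1 share, Gli1+ at left and Gli1- at right, with exact Poisson 95% intervals as error bars; solid lines are cartilage genes and dashed lines fibroblast and tendon genes. Col9a1 goes from 191 to 2788 and from 161 to 3007, and Ly6a from 327 to 61.8 and from 411 to 88.9.

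Near the threshold of 5 UMIs, more cells lay outside the rule than inside it. Just outside it, 190 Gli1+ and 526 Gli1- cells at 21 dpi had 2 to 4 Col2a1 UMIs and Acan at 288 and 162 CPM. Just inside it, 8 and 17 members had 5 to 9 UMIs and Acan at 1471 and 494 CPM. The sides differed in depth, with a median of 11999 and 11560.5 UMIs outside and 3333 and 4105 inside, since a cell with so few Col2a1 UMIs reaches 0.1% only when it is shallow. At least 1 Col2a1 UMI was also found in 10.8% and 18.4% of endothelial cells and in 12.7% and 25.5% of other Pdgfra cells. The part of free RNA in the low counts was not tested.

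Few members held Col10a1, and few of these held most of its UMIs. At least 1 UMI was found in 16 of 185 Gli1+ members (8.65%, 5.02 to 13.7%) and 31 of 292 Gli1- members (10.6%, 7.33 to 14.7%) at 21 dpi, and in 0 of 21 and 1 of 32 at 7 dpi. Endothelial cells held one in 0 of 212 and 14 of 1234 cells (1.13%). The 5 cells with most Col10a1 held 94.9% of its 1701 UMIs in the Gli1+ library and 81.8% of its 2909 UMIs in the Gli1- library, with 587 and 689 UMIs in the highest cell. Of the cells with a UMI, 7 and 6 had exactly 1, and 4 and 6 had at least 100. Cells with Col10a1 were deeper, at a median of 22775 and 17870 UMIs against 13294 and 14970, and the part of depth in the split at 1 UMI was not tested. They also held more Col2a1, at a median share of 2.53% and 2.90% against 1.46% and 1.49%. Of the 16 and 31 cells, 9 and 22 had 2% or more Col2a1 UMIs. The part of the Col2a1 level in the split was not tested.

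Several hypertrophy and mineralization genes were higher in cells with Col10a1. Of 8034 genes, 179 (2.23%) were called higher and 272 (3.39%) lower with against without Col10a1, and the median gene stood at -0.08 and -0.04. Of 15 hypertrophy genes with enough UMIs, 8 were called higher, a count that includes Col10a1 itself, with a median of 1.77 and 1.51. Ihh was at 634 and 252 CPM with Col10a1 and 8.38 and 9.13 CPM without, a log2 ratio of 6.24 (5.58 to 6.98) and 4.79 (4.25 to 5.35). Pth1r was at 1385 and 1133 CPM against 239 and 306, and Alpl at 814 and 1009 CPM against 141 and 167. Pth1r is the receptor of PTHrP and not of Ihh. Of 9 hedgehog and PTHrP genes with enough UMIs, 2 were called higher and 1 lower across the split. Their median was -0.65 and -0.43. Bmp6, a growth factor of hypertrophic cartilage, was at 274 and 112 CPM against 15.5 and 10.9, and Mef2c, a transcription factor that drives Col10a1, at 699 and 672 CPM against 81.7 and 111. Panx3, Smpd3 and Sp7 were higher by 3.08 and 1.78, 2.74 and 1.51, and 1.77 and 2.03. Ibsp was at 3580.0 and 4601 CPM against 840.5 and 500.0.

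Of 8 cartilage collagens 1 was called higher across the split, Col10a1 itself, and of 20 proteoglycans and glycoproteins Hapln1 and Matn1 were called higher and Ucma and Cilp2 lower. Acan stood at a log2 ratio of 0.86 and 0.78, Col9a1 at 0.46 and 0.35 and Cnmd at -0.32 and -0.43, none of them called. Hapln1 was at 4742 and 3307 CPM against 1322 and 1227. Ucma was at 705 and 271 CPM against 1740.5 and 1961, a log2 ratio of -1.30 and -2.85. Runx2 was at 323 and 358 CPM against 253 and 243, and Sox9 at 0.82 in the Gli1+ library and -0.07 in the Gli1- library. Gnas stood at -0.06 and 0.02. Col10a1 itself, used by the split, was at 4856 and 5633 CPM.

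Genes of division had few UMIs in members with or without Col10a1. Mki67 had a UMI in 11 of 185 and 22 of 292 members, so its values in the 16 and 31 cells with Col10a1 rest on few cells. Of 6 genes of the cell cycle with enough UMIs, 1 was called higher and 3 lower. Mki67 had 0 UMIs in both libraries against 28.1 and 22.4 CPM without Col10a1, Cdk1 was at 0 and 1.94 CPM against 21.8 and 21.2, and Top2a at 2.85 and 0 CPM against 34.8 and 32.6. Cdkn1c, an inhibitor of division found in hypertrophic chondrocytes, was called higher, at 534 and 662 CPM against 171 and 157. Of 4 stem cell or adventitial fibroblast genes with enough UMIs, 1 was called lower, Ly6a, and of 8 collagens of tendon and scar 1, Col14a1. Igfbp5 was at 54.2 and 92.9 CPM against 364 and 406, Mmp3, a matrix protease, at 20 and 176 CPM against 282 and 532, and Ly6a at 45.7 and 69.7 CPM against 154 and 207. Tfrc, the transferrin receptor, was at 20 and 15.5 CPM against 113 and 104. Scara3, Islr, Clu, Itgbl1, Igf1 and Lsp1 were also among the 10 of largest ratio downwards, and Loxl4, Pcolce2, Frzb and F13a1 among the 10 upwards. Across the split, epidermal keratins summed to 82.8 and 31.0 CPM against 587 and 26.6. Mural markers summed to 5.71 and 296 CPM against 111 and 169, and endothelial markers to 8.56 and 23.2 against 5.03 and 61.7. Likely doublets were 0 of 16 and 5 of 31 cells with Col10a1, and 22 of 169 and 46 of 261 without. The part of other cells or doublets in these ratios was not tested. Most cells with Col10a1 also held bone-gene UMIs, and only 5 of 16 and 2 of 31 held none. Among members with no bone-gene UMI, 116 of the 179 genes called higher and 241 of the 272 called lower still had enough UMIs, 66 and 39 were still called, and Loxl4 was at -0.19 in the Gli1- library. With each member thinned to 2000 UMIs, 54 of the 179 and 78 of the 272 still had enough UMIs, and 34 and 24 were called. With cells thinned to 2000 UMIs Ly6a, Scara3 and Tfrc were at 0.017, 0.070 and 0.50 in the Gli1+ library. With each cell weighted equally, Ly6a was at 0.19 there.

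**Figure D5:**
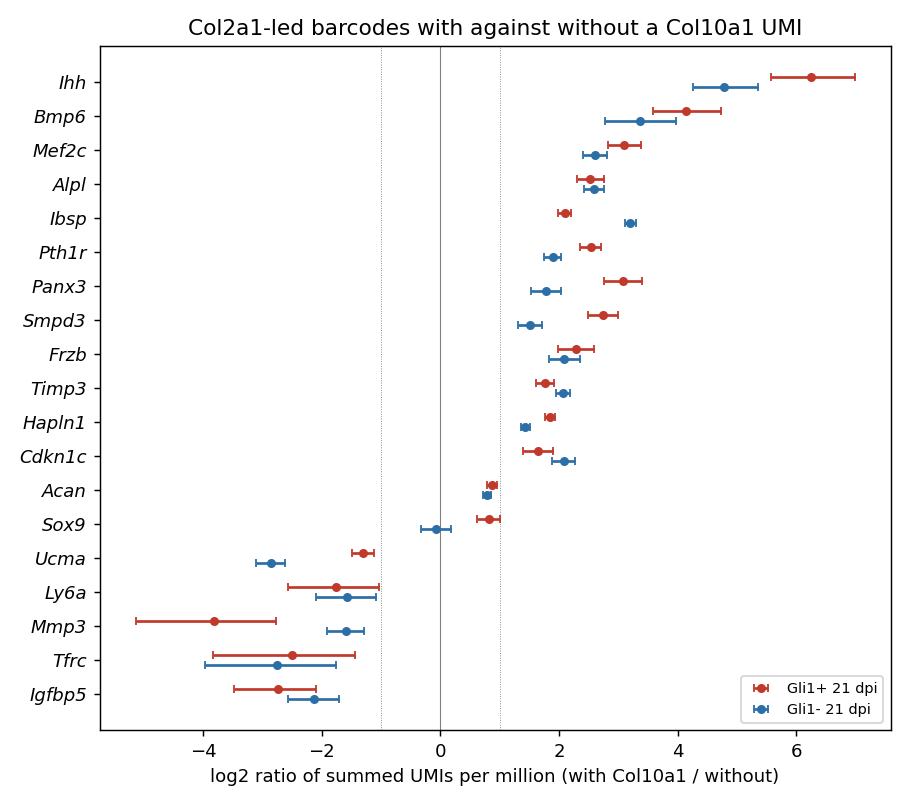
Log2 ratio of summed UMIs per 1000000 in Col2a1-led cells with over those without a Col10a1 UMI at 21 dpi, for 19 genes, red for Gli1+ (16 against 169 cells) and blue for Gli1- (31 against 261 cells), with 95% intervals for counting error as bars; dotted lines mark a log2 ratio of 1 in size. Ihh lies at 6.24 and 4.79, Acan at 0.86 and 0.78 and Ucma at -1.30 and -2.85.

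The main cartilage matrix genes were present in members of both times. Col2a1, which the rule required at both times, was at 20006 and 15599 CPM at 7 dpi. Acan was at 3100.3 and 3063 CPM, Col9a1 at 2027 and 1531 CPM and Cnmd at 1052 and 1008 CPM, from 21 and 32 cells. Each of these 4 differed from 21 dpi by at most 0.70 on the log2 scale. Of 8 cartilage collagens, only Col10a1 was called higher at 21 dpi, and of 10 transcription factors none was called. Of 20 proteoglycans and glycoproteins, Snorc, Chad, Cytl1 and Cilp2 were called higher and Matn1 lower. Over 8320 genes, 258 (3.10%) were called higher and 293 (3.52%) lower at 21 dpi, and the median gene stood at -0.15 and -0.17. Ratios centred on the median gene gave 354 and 190.

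Of 14 genes of hypertrophy and mineralization with enough UMIs, 4 were called higher at 21 dpi, Col10a1, Spp1, Mmp13 and Ank, and of 10 proteases and inhibitors 4, Mmp3, Mmp13, Adamts4 and Timp3. None of either list was called lower. Col10a1 had no UMI in Gli1+ members at 7 dpi and was at least 5.83 higher on the log2 scale at 21 dpi, set against 3 UMIs over the library's members, while in the Gli1- members it went from 1 UMI to 636 CPM, a log2 ratio of 8.79 (6.31 to 14.09). That interval takes UMIs as independent, though a few cells held most of them. By cells, the share with a Col10a1 UMI at 7 dpi was 0 of 21 (0 to 16.1%) and 1 of 32 (3.12%, 0.0791 to 16.2%), intervals that include the shares at 21 dpi. Among Gli1- members with no bone-gene UMI the log2 ratio was -1.40. Spp1 went from 178 and 319 to 5293 and 3472 CPM, Snorc from 946 and 502 to 3500.2 and 3879 CPM and Chad, a collagen-binding protein of cartilage, from 229 and 95.1 to 787 and 862 CPM. Snorc stayed under 15 CPM in the other Pdgfra cells at both times. Some genes were higher in the other Pdgfra cells too. Mmp13 went from 7.28 and 36.0 to 942 and 833 CPM in members and from 62.9 and 39.1 to 1300.1 and 1685 CPM in other Pdgfra cells, and Mmp3 from 14.6 and 27.4 to 249 and 492 CPM and from 217 and 189.7 to 1674 and 2110.2 CPM. Saa3 and Hp, acute-phase genes, went from 40.0 and 59.1 to 520.3 and 1301 CPM and from 43.7 and 70.6 to 1213 and 914 CPM in members. Their levels in other Pdgfra cells went from 353 and 397 to 5224 and 6876 CPM and from 208 and 290.1 to 1121 and 2056 CPM. Lcn2, an iron-binding acute-phase gene, went from 7.28 and 5.77 to 1161 and 265 CPM, Wif1 from 3.64 and 7.21 to 364 and 154 CPM, and Chil1 from 120.1 and 18.7 to 1424 and 497 CPM. Chil1 and Wif1 were at no more than 30.4 and 20.1 CPM in other Pdgfra cells at either time. Ctla2a and the X-linked Xist completed the 10 genes of largest ratio.

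Other genes were called lower at 21 dpi. Postn, periostin of healing tissue, went from 1579 and 2477 to 453 and 530.4 CPM, and Tnn, a tenascin, from 855 and 980.2 to 245 and 163 CPM. C1qtnf3 went from 3133 and 2893 to 475 and 909 CPM, and Tiam2 from 1299 and 1133 to 368 and 376 CPM. Both were at no more than 383 CPM in other Pdgfra cells at either time. Papss2 went from 837 and 663 to 294 and 257 CPM and Slc26a2 from 342 and 327 to 112 and 114 CPM, and these were the 2 called lower of 10 sulfation and glycosaminoglycan genes. None of 19 genes of collagen folding and secretion was called. Matn1, a matrilin of cartilage, went from 135 and 70.6 to 17.5 and 33.7 CPM. Epha3, Fkbp11, Mest, Ptn and Ppp1r11 were also called lower. Cntn5 went from 160.1 and 138 to 0.731 and 0.438 CPM in members, and from 149 and 182 to 0.288 and 0.307 CPM in other Pdgfra cells, with 3.81 and 472 CPM in those of uninjured tendon, so that the libraries differed in it in members and other cells alike. Markers of other cells also differed with time in members. Rgs5 and Myh11 of mural cells were called higher, with Rgs5 at 7.28 and 27.4 CPM at 7 dpi and 71.6 and 158 CPM at 21 dpi, while the epidermal keratins summed to 1510.1 and 15.9 CPM at 7 dpi and 522 and 27.1 CPM at 21 dpi. Their part in the ratios was not tested.

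Genes of the signalling lists were called in both directions with time, beside 3.10% of all genes called higher and 3.52% lower. Of 9 hedgehog and PTHrP genes with enough UMIs, Gli1 and Hhip were called higher, each from 1 Gli1+ member UMI at 7 dpi. Of 14 BMP and FGF genes, the BMP antagonists Grem1 and Chrdl2 were called higher, and of 7 Wnt inhibitors Wif1 was called higher and Sfrp1 lower. Of 18 GNAS and PKA genes, Pde4b was called higher, from 280.2 and 236 to 672 and 518 CPM, and Creb5 lower, from 196 and 169 to 58.1 and 69.8 CPM. Pth1r was at 273 and 422 CPM at 7 dpi and Ptch1 at 160.1 and 133 CPM, log2 ratios of 21 dpi over 7 dpi of 0.50 and -0.08 for Pth1r and of 0.29 and 0.78 for Ptch1. Ihh went from 3.64 and 18.7 to 88.4 and 36.5 CPM and was called in neither direction. Gnas was at 1339 and 1336 CPM at 7 dpi, a log2 ratio of -0.29 (-0.45 to -0.13) and -0.35 (-0.46 to -0.25). Cdkn1a was called higher, from 80.1 and 105 to 701 and 519 CPM, while in other Pdgfra cells it went from 52.8 and 37.2 to 171 and 155 CPM. Ibsp differed between the sorts, from 3.64 to 1191 CPM in Gli1+ and from 1039 to 963 CPM in Gli1- members. The median cell held no Ibsp UMI in any of the 4 groups. At 7 dpi 1 of 21 Gli1+ and 10 of 32 Gli1- members held one, and the highest cells held 1.19 and 224.6 per 10000 UMIs.

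Gli1+ and Gli1- members of 21 dpi were then set against each other. Of 8 cartilage collagens none was called, and of 20 proteoglycans only Cytl1 was, at 38.7 CPM in Gli1+ and 178 CPM in Gli1- members, a difference that turned to 0.78 among members with no bone-gene UMI. Acan stood at 0.00 (-0.04 to 0.04), Col2a1 at -0.11 (-0.12 to -0.09) and Sox9 at 0.69 (0.58 to 0.80) as log2 ratios of Gli1+ over Gli1-. Of 8458 genes, 107 (1.27%) were called higher and 154 (1.82%) lower in Gli1+ members, from 1 library each, and the median gene stood at 0.00. Of 16 genes of hypertrophy and mineralization with enough UMIs, Ihh was called higher and Bglap, Bglap2 and Phex lower, and the first 2 of these lower genes, which the rule had limited, were also the 2 called of 6 osteoblast genes. Cd34 and Tppp3 were called lower of 4 stem cell or adventitial fibroblast genes, and Barx1 higher of 11 transcription factors of cartilage. The 4 endothelial markers summed to 5.48 CPM in Gli1+ and 57.3 CPM in Gli1- members. The 2 of them with enough UMIs, Cdh5 and Pecam1, were called lower, at log2 ratios of -5.53 and -2.83. The part of endothelial RNA in the Cd34 call was not tested. Ligands went both ways. Of 16 BMP and FGF genes with enough UMIs, Bmp2, Bmp6 and Gdf5 were called higher in Gli1+ members and Bmp4 lower, at 3.29 against 11.4 CPM. Bmp5, which is on no list, was also called lower, at 18.6 against 40.7 CPM. Ihh was called higher, at 88.4 against 36.5 CPM, a log2 ratio of 1.27 (0.98 to 1.57). The share of cells with an Ihh UMI was alike, 15 of 185 Gli1+ (8.11%) and 24 of 292 Gli1- members (8.22%). The ratio thus rests on few cells, and its interval takes UMIs as independent. Bmp6, at 48.6 against 22.3 CPM between the sorts, was likewise higher in the few members with Col10a1, as given above. Whether its ratio between the sorts rests on those cells was not tested.

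Of genes with at least 100 CPM in the higher sort, those with the largest ratios upwards in Gli1+ members were epidermal. Krt14, Lgals7 and Krt5 of the epidermis were at 340.2, 178 and 105 CPM in Gli1+ members and at 7.88, 4.16 and 3.94 CPM in Gli1- members. The other Pdgfra cells of the libraries held them at 401, 185 and 121 CPM and at 37.4, 17.2 and 13.5 CPM. Rgs5 of mural cells was lower in Gli1+ members, at 71.6 against 158 CPM, with 58.1 and 145 CPM in the other Pdgfra cells. Acta2, Tagln, Sparcl1, Col4a1 and Fabp4, genes of vessel walls and fat, were likewise lower, though Tagln was at 0.73 without likely doublets and at 1.32 among members with no bone-gene UMI. The part of other cells or of free RNA in these ratios was not tested. Lcn2, Chil1, Wif1, Slpi and Fxyd2 were also higher in Gli1+ members. Lcn2 was at 1161 against 265 CPM in members but at 156 against 263 CPM in other Pdgfra cells, and Slpi, a protease inhibitor, at 2767 against 1242 CPM in members and 1934 against 1852 CPM in other Pdgfra cells. Downwards, among genes at that level, Cxcl5 and Cytl1 had the largest ratios, -2.61 and -2.20. Cxcl5 and Saa3 were at 17.5 against 107 CPM and at 520.3 against 1301 CPM.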

How the data were processed

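Single-cell RNA was measured in 6 libraries made with a 3 prime v3 kit. The authors deposited counts, whole UMIs of 33696 genes per cell barcode, not normalized. Per the file headers they came from Cell Ranger 9.0.0, while the submitters' processing notes list Cell Ranger 3.1.0, STAR and build mm10. Of the symbols, 26 are listed more than once.

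The members, gene lists and thresholds were chosen with earlier results of these data known. UMIs were summed over the cells of a class and library and divided by their total to give CPM. Ratios took genes with at least 10 CPM in either class and 20 UMIs over both, in both libraries, and a call needed a log2 ratio of 1 in size in both sorts. A class with 0 UMIs was set to 3 UMIs, and such a ratio is a bound. Named genes were the 15 (main comparison) or up to 10 (others) of largest ratio with at least 100 CPM on the higher side, leaving out Col2a1, plus the listed genes, of which 225 of 227 symbols were in the files. Other Pdgfra cells had at least 1 Pdgfra UMI. Endothelial cells had at least 2 Cdh5 UMIs and no UMI of Pdgfra or Ptprc, and were not members. How leaving out those with Pdgfra changes their shares of cartilage genes was not tested.

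Shares were also computed with cells thinned to 2000 UMIs (seed 1). DoubletFinder, named in the methods, was not used here. Likely doublets were the top Scrublet scores, 0.8% per 1000 kept cells, and were removed only as an alternative. Python 3.11.15, numpy 2.4.6, pandas 2.3.3, scipy 1.17.1, scanpy 1.11.5 and matplotlib 3.10.9 were used. The ratio and its interval were tried on simulated counts drawn independently, which the interval itself takes. That cannot show how the interval holds where a few cells hold most UMIs. Depth per library was 72196599 to 135202247 UMIs, and intervals hold counting error only. The alternatives tried were other Col2a1 thresholds, other cell filters, all other cells or those with Scx as comparison, members with no bone-gene UMI, doublets removed, each cell weighted equally, thinning, centring on the median gene and other filters on low counts. Promoter windows came from RefSeq on GRCm38.p6 and exons from GENCODE M21.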

Additional observations from a re-analysis of the deposited data

Results flagged for a closer look

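Of 197 tested genes of the lists or named in this comparison, 4 (41 of all 8677 tested genes) had opposite signs in the 2 sorts in the ratio of Col2a1-led over other Pdgfra cells at 21 dpi, with intervals on opposite sides of 0, and the difference between the sorts was not tested. Bmp2, a growth factor of bone and cartilage, had a log2 ratio of 0.40 in the Gli1+ and -0.64 in the Gli1- library. The osteocalcin genes Bglap and Bglap2, which the rule had limited against Col2a1, had -1.34 and 1.62 and -1.43 and 1.88. Col1a2, a chain of type I collagen, had -0.40 and 0.02.

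Some barcodes passed the Col2a1 thresholds but not the limits on cells, and belong to no comparison above. There were 10 in the Gli1+ and 15 in the Gli1- library of 7 dpi and 46 and 67 in those of 21 dpi, against 0 in both libraries of uninjured tendon. Those with more Col2a1 than bone-gene UMIs, 10, 15, 41 and 66 in the same order, had median mitochondrial shares of 8.29%, 11.2%, 7.46% and 8.01%. Their Acan levels were 4575, 3478, 1604 and 2380.0 CPM.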

How the results depend on the processing

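No analysis paired by mouse was possible because each condition had 1 library and the labels gave no replicate numbers. For the same reason no replicate could be left out. Of 140 values of shares and counts under other settings, 109 stayed within the interval of the main share or within 1.5 times the main count, and 31 moved. Requiring 10 Col2a1 UMIs, or 0.5% of UMIs, left 0 members in uninjured Gli1+ tendon. With 0.5%, the shares at 21 dpi were 1.27% and 1.84%. With members that held no bone-gene UMI, they were 1.05% and 1.25%, and 0.193% in Gli1- cells at 7 dpi. Col10a1 was then found in 4.46% and 1.33% of members at 21 dpi. Requiring 2 Col10a1 UMIs gave 4.86% in Gli1+ members, and thinning gave 6.34% in Gli1- members.

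Counts of genes followed the filter on low counts. At 50 CPM, 222 were higher and 342 lower in members (443 and 733 in the text), 98 and 84 across the Col10a1 split (179 and 272), 113 and 144 across time (258 and 293), and 20 and 25 between the sorts (107 and 154). With no filter, these were 1197 and 1291 in members, 409 higher across the split, 703 lower across time and 994 and 1044 between the sorts. With members that held no bone-gene UMI, 386 were higher across the split and 242 and 243 differed between the sorts. With 2 Col10a1 UMIs, 423 were lower across the split, and with thinning 109. Centred on the median gene, 190 were lower across time.

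Of single genes, 4192 values stayed within their interval, 1571 moved and 12 reversed. With no bone-gene UMI, Col10a1 in Gli1- members was at -3.24 against other Pdgfra cells and at -1.40 against 7 dpi, Ibsp, which that rule removes, at -7.98 and -7.86, Loxl4 in Gli1- members at -0.19 across the split, and Cytl1 and Tagln at 0.78 and 1.32 between the sorts. With each cell weighted equally, Ly6a in Gli1+ members was at 0.19 across the split. With thinning, Ly6a, Scara3 and Tfrc in Gli1+ members were at 0.017, 0.070 and 0.50 across it. With likely doublets removed, Tagln was at 0.73 between the sorts. The cause was not tested. With 16 and 31 cells with Col10a1, 5 of which hold most of its UMIs, values of that split rest on few cells. At 7 dpi, 21 and 32 cells limit every level.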
